A study of Columba livia with 12 samples.

Results

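The 88 genes described here, in pigeon breast muscle, belong by name to families of histone and DNA modifiers and nucleosome remodellers. Many of them encode enzymes that write or remove chemical marks on histones and DNA, or parts of the ATP-driven machines that move nucleosomes. Called chromatin genes below, they include some whose products act on other proteins or in mitochondria. They are the entries of the authors' mRNA table whose RefSeq pigeon symbol starts with HDAC, SIRT, KDM, KMT, SETD, PRDM, SMYD, SMARC, DNMT or EZH, or with CHD or TET followed by a digit, and whose mean over the libraries used was at least 0.5 TPM. Of 12918 entries, 90 carried such a symbol, and 2 fell under the minimum. The rule uses only names and the overall level, but it was chosen with earlier results of these data known. Just inside the minimum was PRDM16, with a mean of 0.945 TPM, and just outside were DNMT3B with 0.466 TPM and PRDM6 with 0.402 TPM.

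The birds were White-King pigeons, a meat breed of Columba livia, and breast muscle was taken at the age of 1 day (1D), 14 days (14D) and 28 days (28D), with 3 libraries per stage. All groups share breed and tissue, and no treatment or genetic change is named. Birds of 2 years (2Y) were not analysed here. The labels do not say whether each library came from a separate bird, nor the sex of the birds, so p-values measure the spread between libraries, which may be technical. Values are TPM, transcripts per fixed number of transcripts in the library after scaling for length, so the levels of different genes can be compared. They carry no read counts, and the depth of each library is therefore unknown.

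A histone tail can carry acetyl groups, which loosen its grip on DNA, and methyl groups, which mark active or silent genes depending on the position. Histone deacetylases (HDACs and several sirtuins) remove the first kind of mark, while methyltransferases (KMT, SETD, EZH and some SMYD and PRDM proteins) and demethylases (KDM) write and remove the second. DNA methyltransferases and TET enzymes do the same for cytosine methylation, and the SWI/SNF, ISWI and CHD motors slide or evict nucleosomes. In skeletal muscle, class IIa HDACs are known as repressors of MEF2-driven genes, EZH2 as the enzyme that keeps muscle genes silent in precursor cells, and SMYD1 as a protein needed to assemble the myosin filament.

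The libraries of a stage resembled each other in their mRNA profile, with a mean Spearman correlation to the other libraries of the stage between 0.968 and 0.983, and none stood apart by that measure. The 9 skeletal muscle markers in the table (of 11 listed, among them TTN, RYR1 and TNNT3) summed to 36633 to 42228 TPM in the 1D libraries, 47751 to 56573 TPM at 14D and 44115 to 45040 TPM at 28D, with no overlap between 1D and either later stage. From 1D to 14D 3 of the 9 (ACTA1, RYR1 and TPM1) passed as higher and 2 (TTN and DES) as lower. From 1D to 28D 3 were called higher and 3 lower. The abundant ACTA1 had stage means of 12345, 23680 and 18064 TPM and TPM1 of 4539, 9457 and 9043 TPM. TNNC2 went the other way, with 9464, 6916 and 4098 TPM, so the sum does not stand for every marker. The markers of other cells moved with age too. The 21 genes of DNA replication and mitosis in the table, all of which passed the test as lower at 14D than at 1D, summed to 1155 to 1261 TPM at 1D, 211 to 327 TPM at 14D and 152 to 174 TPM at 28D. The 10 fibroblast markers, all lower as well, summed to 7640 to 9542, 2143 to 2371 and 1104 to 1182 TPM. Of the 8 endothelial markers found, 6 rose, with sums of 385 to 480, 527 to 1054 and 791 to 850 TPM, and of 6 macrophage markers 4 rose, with sums of 90.7 to 160, 436 to 833 and 480 to 778 TPM. CD74 went from a mean of 34.4 TPM at 1D to 463 TPM at 14D and 540 TPM at 28D and held most of the later macrophage sums. MARCO did not rise (1.86, 0.947 and 0.585 TPM as stage means). Red blood cell markers summed to 263 to 490, 36.0 to 64.5 and 45.1 to 57.3 TPM, adipocyte markers to 39.7 to 70.2, 108 to 130 and 178 to 217 TPM, Schwann cell and nerve markers to 97.0 to 118, 42.9 to 55.5 and 35.1 to 40.5 TPM, and lymphocyte markers to at most 4.35 TPM in any library. Of 3 red blood cell markers 1 was called lower at 14D and 0 higher. HBAD went from a mean of 312 TPM at 1D to 0.732 TPM at 14D. EPB42 (8.26 and 12.8 TPM) and SLC4A1 (29.2 and 34.5 TPM) did not fall. ADIPOQ held most of the adipocyte sum (43.4, 105 and 176 TPM as stage means), and 1 of 4 adipocyte markers was called higher at 14D. No marker of these lists in the table was at 0 in every library of a stage. In whole muscle, fewer cells of a type and less RNA per cell cannot be told apart, and the part of these shifts in the results below was not tested.

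Of the 88 chromatin genes, 45 changed between day 1 and day 14, and most of these fell. As deposited, 36 were lower and 9 were higher at 14D (limma on log2(TPM + 1), Benjamini-Hochberg adjusted p below 0.05 over all 11951 genes tested), which is 40.9% and 10.2%. Over all genes tested, 52.8% were called, 39.2% lower and 13.6% higher, so the shares among the chromatin genes lay near the background. Their median log2 change was -0.28, that of all genes -0.31. Changes of at least 2-fold were found in 14 members (15.9%), against 25.7% of all genes. After each library was rescaled by its median ratio, which brings the median of all genes to 0.01, 22 members were higher and 22 lower, with 24.5% and 25.9% of all genes. The split between rises and falls depended on the scaling.

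**Figure D1:**
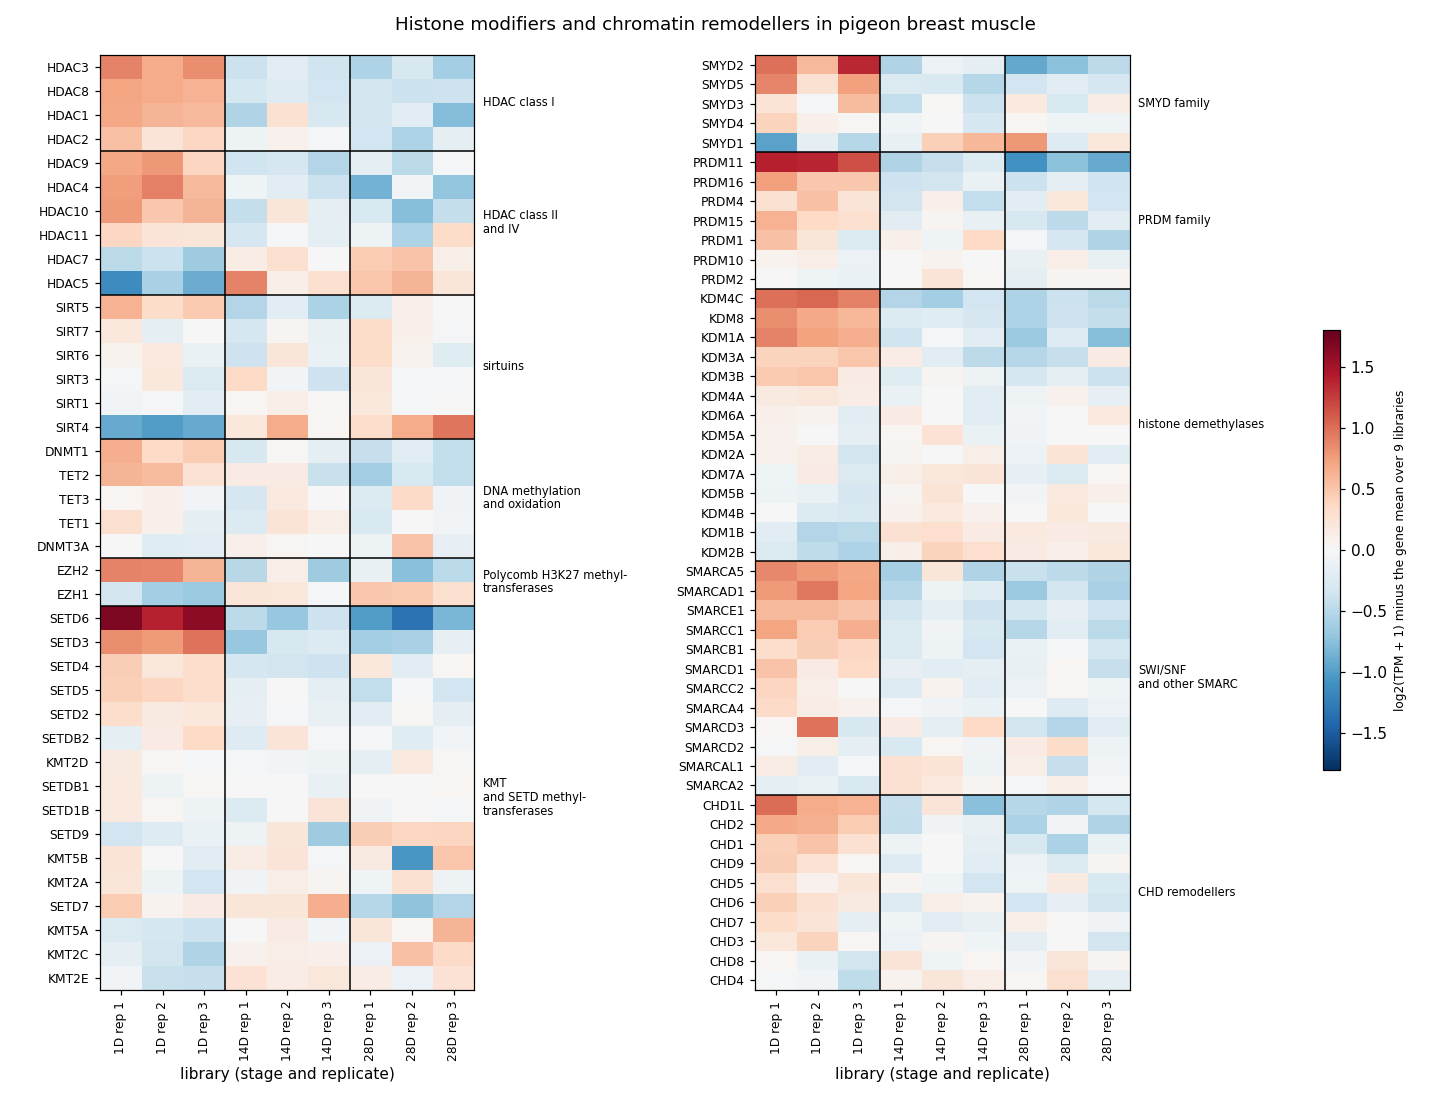
Level of 87 of the 88 chromatin genes in 9 libraries, as log2(TPM + 1) minus the mean of each gene over the libraries; red is above and blue below that mean, genes stand in rows grouped by role and ordered by their 14D vs 1D change, and libraries stand in columns. Of the 88 genes 45 were called between the 1D and the 14D columns, 36 of them lower and 9 higher, and 1 between 14D and 28D.

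The Polycomb enzymes that methylate lysine 27 of histone H3, EZH2 and EZH1, moved in opposite directions after day 1. EZH2, the form typical of dividing cells, had 27.2, 27 and 22.2 TPM in the 1D libraries, 9.79, 15.6 and 8.81 in those of 14D, and 12.9, 8.08 and 9.9 in those of 28D. No later library reached the lowest 1D value. EZH1, the form typical of resting cells, had 4.27, 3.33 and 3.17 TPM in the 1D libraries, 6.72, 6.62 and 5.47 in those of 14D, and 8.28, 8.17 and 7.09 in those of 28D, and its libraries of the 3 stages did not overlap. From 1D to 14D the log2 change was -1.13 ± 0.23 (SE) for EZH2 and 0.67 ± 0.16 for EZH1 (adjusted p = 0.00204 and 0.00571), and from 1D to 28D it was -1.25 ± 0.23 and 0.95 ± 0.16 (adjusted p = 0.000859 and 0.000536). Both genes passed in both comparisons under every alternative tried, including the rescaled values.

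The ratio of EZH2 to EZH1 within a library does not change when a library is multiplied by a factor, as in the median-ratio rescaling, though quantile normalization can change it. It was 6.37, 8.11 and 7 in the 1D libraries, 1.46, 2.35 and 1.61 at 14D and 1.56, 0.99 and 1.4 at 28D. The mean log2 ratio went from 2.83 ± 0.18 at 1D to 0.82 ± 0.37 at 14D and 0.37 ± 0.34 at 28D (SD, n = 3), with no overlap between 1D and either later stage. The library with the highest EZH2 value at 14D, replicate 2, also had the highest sum of replication and mitosis genes of that stage, 327 TPM against 211 and 214 TPM. Its fibroblast, endothelial and macrophage marker sums were the highest of the stage as well (2371, 1054 and 833 TPM). Its muscle marker sum was the lowest (47751 TPM). The part of these differences in its EZH2 value was not tested.

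Among the histone deacetylases, all 4 class I enzymes fell from 1D to 14D, whereas class II divided. After median-ratio rescaling 2 of the 4 class I enzymes were lower. Of all genes 39.2% were lower and 13.6% higher, and 25.9% were lower after that rescaling. HDAC3, the catalytic subunit of the NCoR and SMRT corepressors, had 36.3, 30.8 and 34.8 TPM in the 1D libraries and 14.4, 16.5 and 14.7 in those of 14D (log2 change -1.11 ± 0.15, adjusted p = 0.00015). HDAC8 had 27.6, 26.9 and 26 TPM in the 1D libraries and 13, 14 and 12.8 in those of 14D (log2 change -0.96 ± 0.12, adjusted p = 0.000139), a drop larger than the spread within either stage. HDAC1 and HDAC2, the shared catalytic subunits of the NuRD and SIN3 complexes, dropped to 28.5 ± 8.86 from 49.7 ± 2.25 TPM and to 71.4 ± 4.25 from 94.4 ± 9.71 TPM (mean ± SD, n = 3; log2 changes -0.82 ± 0.22 and -0.40 ± 0.14, adjusted p = 0.01 and 0.0387). HDAC2 was the most abundant deacetylase in every library. The HDAC1 and HDAC2 calls were lost after median-ratio rescaling (adjusted p = 0.0648 and 0.834) and after quantile normalization. The HDAC2 call was also lost without 1D replicate 1 or 3, 14D replicate 1 or 3 or 28D replicate 1 (adjusted p from 0.054 to 0.143) and without a trend in the moderation, and the range over all alternatives was 0.00177 to 0.0648 for HDAC1 and 0.0264 to 0.834 for HDAC2. By 28D HDAC1 stood at 23.4 ± 4.84 TPM and HDAC2 at 56.3 ± 7.3 TPM.

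The class IIa enzymes bind MEF2 and leave the nucleus when phosphorylated. HDAC4 and HDAC9 fell, and HDAC5 and HDAC7 rose. HDAC4 had 14.9, 16.6 and 13.1 TPM in the 1D libraries, 7.91, 7.28 and 6.22 in those of 14D, and 4.22, 8.11 and 4.74 in those of 28D. HDAC9 had 30.5, 32.5 and 24.4 TPM in the 1D libraries, 14.2, 14.8 and 12.5 in those of 14D, and 16.1, 13 and 18.1 in those of 28D. In both genes every 1D library lay above every later one. HDAC5 had 13.9, 20.7 and 16.6 TPM in the 1D libraries, 59.9, 34.3 and 39 in those of 14D, and 45.2, 48.7 and 36.9 in those of 28D. HDAC7 had 14.6, 15.6 and 12.9 TPM in the 1D libraries, 22.9, 25.5 and 20.8 in those of 14D, and 28.8, 30.1 and 22.3 in those of 28D. In HDAC5 and HDAC7 every 1D library lay below every later one. From 1D to 14D the log2 change was -0.96 ± 0.22 for HDAC4, -1.02 ± 0.17 for HDAC9, 1.31 ± 0.22 for HDAC5 and 0.65 ± 0.16 for HDAC7 (adjusted p = 0.00379, 0.000662, 0.000781 and 0.00628). The change of HDAC5 was the largest rise among the 88 members in this comparison. All 4 calls held under every alternative, in this comparison and in that of 28D with 1D.

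Of the remaining deacetylases, HDAC10, a class IIb enzyme that acts on polyamines, fell from 16.5 ± 1.73 to 9.55 ± 2.41 TPM (adjusted p = 0.01). That call was lost under both rescalings, by which its adjusted p was 0.0667 and 0.0669 (range over all alternatives 0.00364 to 0.0669). HDAC11, the class IV enzyme, was at 10.5 ± 0.681 and 7.44 ± 0.796 TPM at these stages and missed the threshold (adjusted p = 0.103), except without 28D replicate 2 (adjusted p = 0.0416, range over all alternatives 0.0416 to 0.652). The ratio of HDAC1 to HDAC4, which both fell, was 3.5, 2.96 and 3.64 at 1D and 5.9, 3.36 and 3.79 at 28D, with overlapping libraries.

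**Figure D2:**
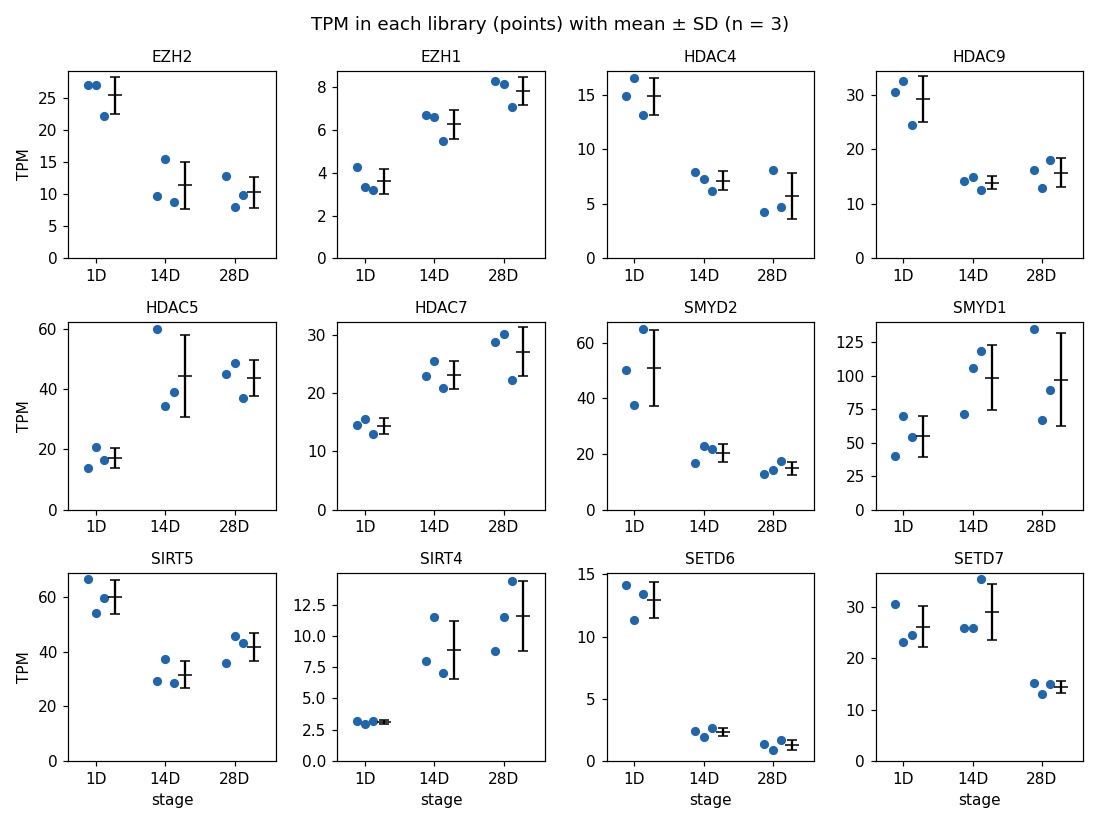
TPM of 12 chromatin genes in each library (points) by stage, with mean ± SD over 3 libraries beside them; the vertical axes start at 0 and differ between genes. EZH2, HDAC4, HDAC9, SMYD2, SIRT5 and SETD6 are highest at 1D, EZH1, HDAC5, HDAC7, SMYD1 and SIRT4 are lowest at 1D by their means, and SETD7 is lower at 28D than at both earlier stages.

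Sirtuins are deacylases that consume NAD, and the 2 that changed by day 14 both reside in mitochondria. Of 6 sirtuins 1 was called higher and 1 lower at 14D (16.7% each), against 13.6% and 39.2% of all genes. SIRT4, which inhibits glutamate dehydrogenase in mammals, had 3.2, 2.93 and 3.22 TPM in the 1D libraries, 7.99, 11.5 and 7.05 in those of 14D, and 8.8, 11.5 and 14.4 in those of 28D. SIRT5, which removes succinyl groups from proteins, had 66.7, 54.1 and 59.6 TPM in the 1D libraries, 29.2, 37.2 and 28.4 in those of 14D, and 36, 45.8 and 43 in those of 28D. The first rose by a log2 change of 1.23 ± 0.21 and the second fell by 0.91 ± 0.16 (adjusted p = 0.000812 and 0.000866). Neither gene's 1D libraries overlapped with the later ones. SIRT5 was again called lower at 28D than at 1D (adjusted p = 0.0158), though not under either rescaling. That call was also lost without 1D replicate 1 or 28D replicate 1 (adjusted p from 0.0649 to 0.0663), with a range of 0.00983 to 0.518 over all alternatives. SIRT1, a nuclear sirtuin, and SIRT3, the main mitochondrial deacetylase, did not pass at 14D. Their levels at 1D and 14D were 21.6 ± 1.45 and 24.1 ± 0.933 TPM for SIRT1, and 20.1 ± 3.26 and 20.4 ± 5.45 TPM for SIRT3 (adjusted p = 0.36 and 0.988). On the rescaled values SIRT1 was called higher (adjusted p = 0.00525 by median ratio and 0.00362 by quantiles, range over all alternatives 0.00362 to 0.636). SIRT6 and SIRT7 did not pass in any of the 3 comparisons as deposited. On the rescaled values SIRT7 was called higher at 28D than at 1D (adjusted p = 0.0096 by median ratio and 0.00843 by quantiles, range over all alternatives 0.00843 to 0.955). SIRT6 and SIRT3 were called higher in that comparison by quantiles alone (adjusted p = 0.0428 and 0.0426, ranges 0.0428 to 0.955 and 0.0426 to 0.983).

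Of 5 enzymes of DNA methylation and its oxidation, DNMT1 and TET2 passed the test as deposited. Both were lower at 14D (40%), against 39.2% of all genes. DNMT1, which copies methylation onto new DNA strands, fell from 22, 17.8 and 19 TPM on day 1 to 11, 13.8 and 12.1 TPM on day 14 (log2 change -0.63 ± 0.15, adjusted p = 0.00569) and stood at 9.99, 11.7 and 9.73 TPM at 28D. DNMT3A, which sets methylation anew, had 21.9, 18.6 and 19.1 TPM in the 1D libraries and 23.5, 22.4 and 21.8 in those of 14D, and was not called (adjusted p = 0.436). The DNMT3A to DNMT1 ratio within a library was 0.998, 1.05 and 1 at 1D, 2.13, 1.63 and 1.81 at 14D and 2.04, 2.69 and 2.02 at 28D, and the 1D libraries did not overlap with the later ones. The scaling bears on each gene alone: after median-ratio rescaling DNMT1 did not pass at 14D (adjusted p = 0.0968, range over all alternatives 0.00463 to 0.125) and DNMT3A was called higher (adjusted p = 0.0414, range 0.0323 to 0.634).

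The TET enzymes oxidise methylated cytosine. TET2 fell from 14.2 ± 1.89 TPM at 1D to 6.96 ± 0.974 TPM at 28D (log2 change -0.93 ± 0.19, adjusted p = 0.00201), a call kept under every alternative. Its drop by 14D (adjusted p = 0.0466) was not kept without a filter on low values or under either rescaling. It was also lost without 1D replicate 1 or 2, 14D replicate 3 or 28D replicate 1 or 3 (adjusted p from 0.0532 to 0.178), and the range over all alternatives was 0.0393 to 0.451. TET1 and TET3 did not pass in any comparison. At 1D and 14D the levels were 9.98 ± 1.73 and 9.78 ± 1.85 TPM for TET1 and 2.35 ± 0.155 and 2.21 ± 0.528 TPM for TET3, and their ratio stayed between 1.58 and 2.29 on the log2 scale over all libraries.

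**Figure D3:**
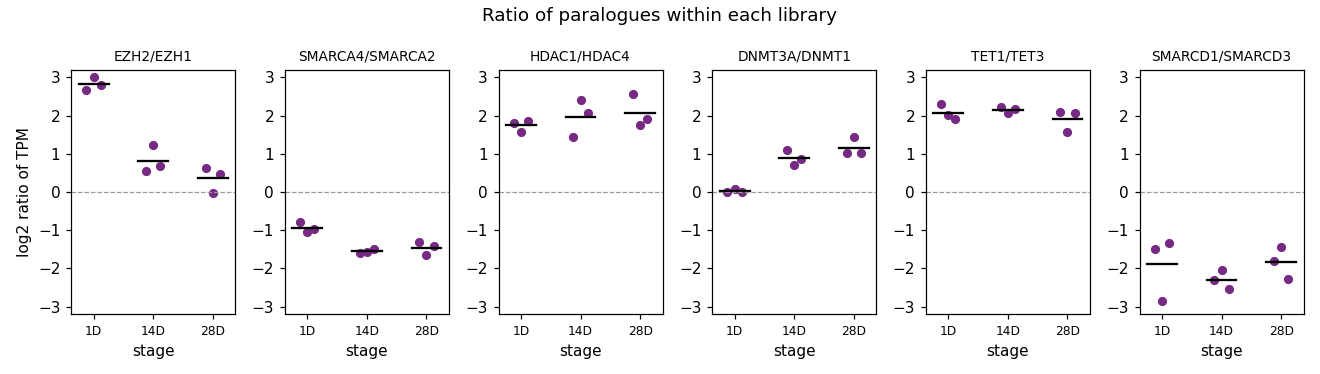
Log2 ratio of the TPM of 6 gene pairs within each library (points) by stage, with the mean of the stage as a bar and equal levels as a dashed line. The EZH2 to EZH1, DNMT3A to DNMT1 and SMARCA4 to SMARCA2 ratios at 1D do not overlap with those of later stages, while the other 3 pairs overlap.

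Among the 16 KMT and SETD genes, 4 fell (25%) and 1 rose (6.25%) from 1D to 14D, against 39.2% lower and 13.6% higher among all genes. The largest fall among the 88 members was here. After median-ratio rescaling 4 of the 16 were higher and 2 lower (24.5% and 25.9% of all genes). SETD6, which methylates the NF-kappaB subunit RELA, had 14.1, 11.4 and 13.4 TPM in the 1D libraries, 2.39, 1.95 and 2.64 in those of 14D, and 1.34, 0.88 and 1.67 in those of 28D (log2 change -2.07 ± 0.18 by 14D, adjusted p = 1.55e-05). SETD3, which methylates a histidine of actin in mammals, had 83.1, 79.6 and 91.9 TPM in the 1D libraries and 28.5, 37.7 and 38.8 in those of 14D (log2 change -1.26 ± 0.18, adjusted p = 0.000217). Both drops exceeded the spread within either stage and held under every alternative. SETD4 and SETD5 fell as well (log2 changes -0.65 ± 0.16 and -0.49 ± 0.15, adjusted p = 0.00593 and 0.0196), but not on the values of either rescaling. The SETD5 call was also lost without 1D replicate 1 or 2 or 14D replicate 1 or 3 (adjusted p from 0.0537 to 0.0602). The ranges over all alternatives were 0.00432 to 0.0688 and 0.00995 to 0.49. KMT2E, a relative of the H3K4 methyltransferases that binds the mark rather than writes it, rose from 28.7, 22.2 and 22.1 TPM to 35.8, 32.7 and 34.4 TPM (adjusted p = 0.0221). That call was lost without 1D replicate 2 or 3 or 14D replicate 1 or 3 (adjusted p from 0.0543 to 0.0819), with a range of 0.00122 to 0.0819 over all alternatives.

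Several large enzymes that place active marks did not pass. KMT2A had 5.69 ± 1.31, 6.11 ± 0.431 and 6.15 ± 1.09 TPM at the 3 stages, KMT2D had 10.7 ± 0.791, 9.88 ± 0.218 and 10.4 ± 1.38 TPM, and SETD1B had 3.97 ± 0.468, 3.83 ± 0.811 and 3.71 ± 0.102 TPM. None of these 3 passed in any comparison as deposited. KMT2A was called higher at 28D than at 1D on the rescaled values (adjusted p = 0.0398 by median ratio and 0.0287 by quantiles, range over all alternatives 0.0287 to 0.944). KMT2C, which marks enhancers, was at 10.9, 9.7 and 8.25 TPM at 1D and 11.6, 18.5 and 16.2 TPM at 28D. KMT5A, which writes the first methyl group on lysine 20 of histone H4, was at 12.6, 12 and 11.5 TPM on day 1 and 17.8, 15.7 and 23.9 TPM on day 28. Both were called higher at 28D than at 1D (adjusted p = 0.0142 and 0.0095), KMT2C except without 1D replicate 3 (adjusted p = 0.0571, range over all alternatives 0.000955 to 0.0571). KMT5B, a writer of further methyl groups on that lysine, had 17.7, 7.09 and 22.8 TPM in the 28D libraries, the second of which stood far under the others, and did not pass (adjusted p = 0.715 against 1D).

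The SMYD family, named for a SET domain split by a zinc finger, holds both muscle proteins and general methyltransferases, and SMYD1 and SMYD2 went in opposite directions. SMYD1, the striated-muscle member, had 39.7, 69.9 and 54.3 TPM in the 1D libraries, 71.2, 106 and 118 in those of 14D, and 135, 66.5 and 89.3 in those of 28D, the highest mean of all 88 genes. Its 1D and 14D libraries did not overlap, by a narrow margin, while those of 1D and 28D did. It was called higher at 14D (log2 change 0.84 ± 0.29, adjusted p = 0.0323) and at 28D (log2 change 0.79 ± 0.29, adjusted p = 0.0369). The 14D call was lost without 1D replicate 1 or 3 or 14D replicate 2 or 3 (adjusted p from 0.0708 to 0.126). The 28D call was lost without 1D replicate 1 or 3 or 28D replicate 1 or 3 (adjusted p from 0.0664 to 0.141). Over all alternatives the range was 0.0064 to 0.126 for 14D and 0.00541 to 0.141 for 28D.

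SMYD2, which methylates the chaperone HSP90 among other proteins, had 50.1, 37.7 and 64.8 TPM in the 1D libraries, 16.7, 22.8 and 21.9 in those of 14D, and 12.6, 14.4 and 17.5 in those of 28D. Every 1D library lay above every later one, and the log2 change was -1.25 ± 0.21 by 14D and -1.69 ± 0.21 by 28D (adjusted p = 0.000783 and 8.37e-05). SMYD5 fell from 12.4 ± 2.73 to 5.71 ± 0.653 TPM (adjusted p = 0.00127). SMYD3 and SMYD4, at 2.42 ± 0.718 and 5.26 ± 0.925 TPM at 1D, did not pass in any comparison. SMYD3 was called lower at 14D without 1D replicate 2 or 14D replicate 2 (adjusted p = 0.0456 and 0.0347, range over all alternatives 0.0347 to 0.254).

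PRDM genes encode zinc finger proteins with a domain related to that of the methyltransferases. Of 8 members 5 were called lower at 14D than at 1D (62.5%), against 39.2% of all genes. Of these 5, 2 reached the 1 TPM that the test asks for in the 1D libraries only, so that a difference was built into their entry, and nothing is read from the count. PRDM11 had 15.4, 15.1 and 12.9 TPM in the 1D libraries, 3.26, 3.65 and 4.25 in those of 14D, and 1.93, 2.74 and 2.32 in those of 28D (log2 change -1.71 ± 0.16 by 14D, adjusted p = 2.37e-05). PRDM16, best known from brown fat of mammals, had 2.1, 1.62 and 1.6 TPM on day 1 and 0.442, 0.485 and 0.72 TPM on day 14, and is 1 of these 2, so no test is given for it. The 1D and 14D libraries of PRDM11 did not overlap. PRDM4 and PRDM15 were called lower too (adjusted p = 0.033 and 0.0205), but not after either rescaling (ranges over all alternatives 0.0123 to 0.283 and 0.0167 to 0.225). The PRDM4 call was lost without 1D replicate 1, 2 or 3 or 14D replicate 1 or 3 (adjusted p from 0.0525 to 0.114), and the PRDM15 call was lost without 1D replicate 1 or 14D replicate 1 or 3 (adjusted p from 0.0583 to 0.0847). PRDM1, PRDM2 and PRDM10 did not pass in any comparison as deposited. PRDM2 was called higher after median-ratio rescaling at 14D and at 28D than at 1D (adjusted p = 0.00741 and 0.0114, ranges over all alternatives 0.00585 to 0.658 and 0.00812 to 0.973). PRDM1 was called lower at 28D than at 1D without 1D replicate 3 (adjusted p = 0.0415, range 0.0415 to 0.734).

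Of 14 histone demethylases 5 fell (35.7%) and 2 rose (14.3%) between 1D and 14D, against 39.2% lower and 13.6% higher among all genes, and after median-ratio rescaling 3 were lower and 6 higher (25.9% and 24.5% of all genes). KDM4C, which clears methyl groups from lysines 9 and 36 of histone H3, had 26.7, 27.5 and 25 TPM in the 1D libraries, 8.66, 8.1 and 9.99 in those of 14D, and 8.47, 9.69 and 8.96 in those of 28D (log2 change -1.47 ± 0.14 by 14D, adjusted p = 2.22e-05). KDM1A, the LSD1 enzyme that removes methyl groups from lysine 4, had 29.4, 26.2 and 24.8 TPM in the 1D libraries and 11.9, 15 and 13.4 in those of 14D (log2 change -0.95 ± 0.17, adjusted p = 0.0012). Its relative KDM1B had 5.8, 4.42 and 4.6 TPM on day 1 and 8.48, 8.64 and 7.65 TPM on day 14 (log2 change 0.65 ± 0.15, adjusted p = 0.00433). These paralogues moved in opposite directions, with no overlap between the stages in either. KDM8 fell from 20.0 ± 1.87 to 9.74 ± 0.312 TPM (adjusted p = 0.00026). KDM2B, which brings a Polycomb complex to unmethylated DNA, rose between these stages from 10.5 ± 1.22 to 17.6 ± 1.88 TPM (log2 change 0.70 ± 0.15, adjusted p = 0.00257).

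The H3K9 demethylases KDM3A and KDM3B were called lower at 14D (log2 changes -0.62 ± 0.21 and -0.46 ± 0.15, adjusted p = 0.0293 and 0.0265), but lost the call after either rescaling. The KDM3A call was also lost without 1D replicate 1, 2 or 3 or 14D replicate 2 or 3 (adjusted p from 0.0582 to 0.111), and the KDM3B call was lost without 1D replicate 1 or 2 or 14D replicate 1 or 3 (adjusted p from 0.064 to 0.0943). The ranges over all alternatives were 0.0153 to 0.348 and 0.0187 to 0.61. KDM6A, which removes the mark that the EZH enzymes write, had 26 ± 2.9, 25.9 ± 3.22 and 27 ± 2.27 TPM at the 3 stages and did not pass as deposited. After median-ratio rescaling it was called higher at 28D than at 1D (adjusted p = 0.0182, range over all alternatives 0.0149 to 0.966). KDM2A, KDM4A and KDM5A likewise did not pass as deposited. KDM5A was called higher after median-ratio rescaling at 14D and at 28D than at 1D (adjusted p = 0.0181 and 0.0218, ranges 0.018 to 0.951 and 0.0177 to 0.983). KDM6B was not analysed here.

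Of the 12 SMARC genes, which encode the SWI/SNF motor, its partners and related motors, 6 fell (50%) and 1 rose (8.33%) from 1D to 14D, against 39.2% lower and 13.6% higher among all genes. After median-ratio rescaling 4 were lower and 2 higher (25.9% and 24.5% of all genes). SMARCA5, the motor of the ISWI complexes, had 48.1, 45 and 42.7 TPM in the 1D libraries, 16.8, 30.4 and 17.5 in those of 14D, and 19.5, 18.5 and 17.5 in those of 28D (log2 change -1.09 ± 0.21 by 14D, adjusted p = 0.00148). Its 14D value in replicate 2 stood above the other two, as did those of EZH2 and HDAC1, and still under every 1D value. SMARCE1 and SMARCC1, subunits of SWI/SNF, dropped to 35.8 ± 2.73 from 65.3 ± 1.88 TPM and to 18.6 ± 1.65 from 33.4 ± 3.18 TPM (adjusted p = 0.000331 and 0.0012), and SMARCAD1, a remodeller of heterochromatin, fell from 11.2 ± 1.03 to 4.78 ± 0.851 TPM (adjusted p = 0.00047). These 4 calls held under every alternative. Those of SMARCB1 and SMARCD1 (adjusted p = 0.004 and 0.0228) were lost after either rescaling (ranges over all alternatives 0.00349 to 0.116 and 0.0171 to 0.494), and the SMARCD1 call was also lost without 1D replicate 1 or 3 or 14D replicate 3 (adjusted p from 0.0528 to 0.0882).

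SMARCA4 and SMARCA2 (BRG1 and BRM) are the alternative motors of SWI/SNF. SMARCA2 had 36.2, 37.2 and 33.5 TPM in the 1D libraries and 49, 45.9 and 41.9 in those of 14D. SMARCA4 had 21.1, 17.9 and 17.2 TPM on day 1 and 16.1, 15.5 and 14.9 TPM on day 14. SMARCA2 was called higher at 14D (log2 change 0.35 ± 0.13, adjusted p = 0.0395), and SMARCA4 did not pass (adjusted p = 0.148). The SMARCA2 call was lost without 1D replicate 1, 2 or 3, 14D replicate 1 or 2 or 28D replicate 1 or 3 (adjusted p from 0.0514 to 0.129) and without a trend in the moderation (range over all alternatives 0.00114 to 0.129). Within a library SMARCA4 stood at 0.582, 0.483 and 0.515 of the SMARCA2 level at 1D, 0.328, 0.338 and 0.355 at 14D and 0.407, 0.316 and 0.375 at 28D, with no overlap between 1D and the later stages. SMARCD3 (BAF60C), the subunit that joins SWI/SNF to MYOD1 in mammals, had 56.7, 111 and 45.1 TPM at 1D, with 1 library far above the others, 61.2, 48.9 and 71.1 TPM at 14D and 43.9, 38.3 and 48.5 TPM at 28D. It did not pass between 1D and 28D (adjusted p = 0.0992). Without 1D replicate 3 it was called lower (adjusted p = 0.0279) and without 1D replicate 2, the highest, it was not (adjusted p = 0.389, range over all alternatives 0.0279 to 0.634). Its paralogue SMARCD1 had 17.8 ± 2.43 TPM on day 1 and 12.3 ± 2.05 TPM on day 28, and the SMARCD1 to SMARCD3 ratios of the stages overlapped.

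Of 10 CHD remodellers 3 were lower (30%) at 14D and 0 were higher by limma, against 39.2% lower and 13.6% higher among all genes, and after median-ratio rescaling 2 were lower and 2 higher (25.9% and 24.5% of all genes). CHD1L, a motor recruited to damaged DNA, fell from 22.8, 17.8 and 17.4 TPM to 7.9, 13 and 6.01 TPM (adjusted p = 0.00339) and CHD2 from 24.5, 23.9 and 20.8 TPM to 10.8, 14.2 and 13.5 TPM (adjusted p = 0.00405). CHD2 lost its call after quantile normalization (adjusted p = 0.062, range over all alternatives 0.00161 to 0.062). CHD1, which binds methylated lysine 4, was called lower (adjusted p = 0.0231), but not after either rescaling. Its call was also lost without 1D replicate 1 or 2 or 14D replicate 1 or 3 (adjusted p from 0.0548 to 0.0803), with a range of 0.0121 to 0.522 over all alternatives. CHD4, the motor of the NuRD complex and the most abundant CHD gene, had 29.5 ± 4.87, 36.7 ± 2.08 and 34.6 ± 5.86 TPM and did not pass as deposited (adjusted p = 0.141 at 14D), while it was called higher on the rescaled values (adjusted p = 0.00568 by median ratio, range over all alternatives 0.00568 to 0.44).

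**Figure D4:**
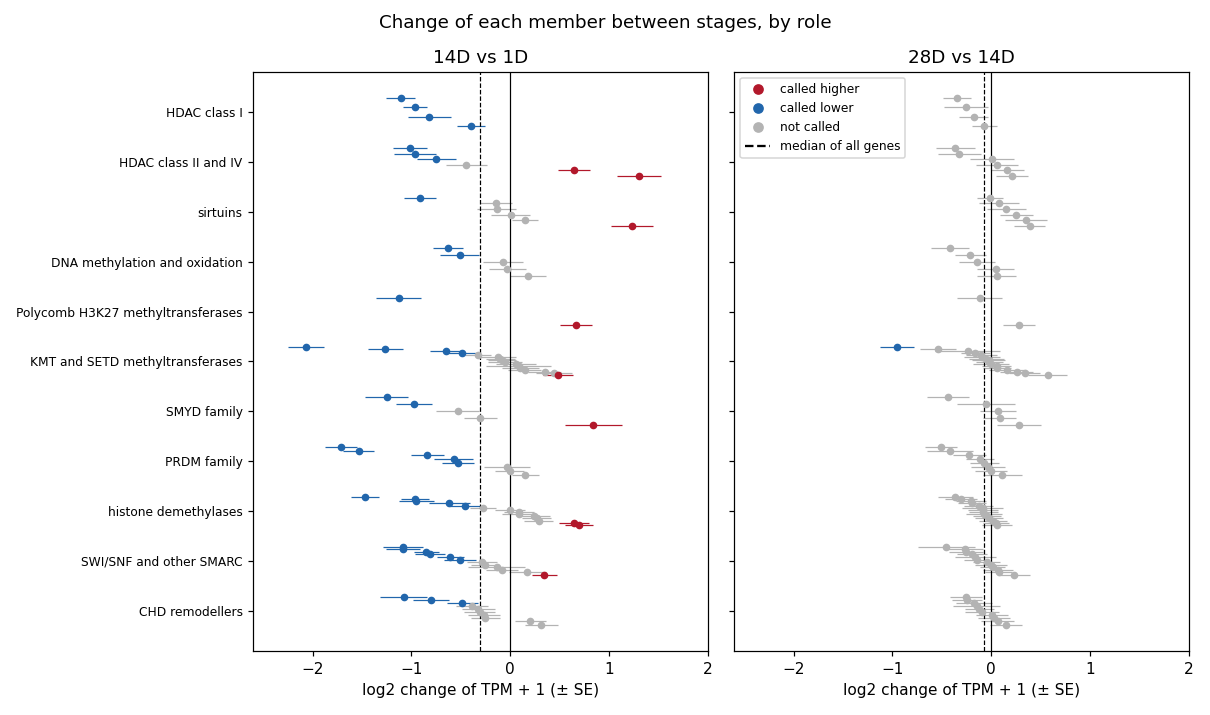
Log2 change of TPM + 1 (with its SE) of each of the 88 chromatin genes between 14D and 1D (left) and between 28D and 14D (right), in rows by role. Points are red where called higher, blue where called lower and grey where not called, and the dashed line is the median of all genes tested; the left panel holds 9 red and 36 blue points and the right panel 1 blue point, SETD7.

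Between day 14 and day 28 a single chromatin gene passed the test. Of 88 members 1 was lower at 28D and 0 were higher by limma (2 higher and 4 lower at an unadjusted p below 0.05), beside 0.87% lower and 0.544% higher among all genes tested (1.41% in either direction). The changes of the members ranged from -0.96 to 0.57 on the log2 scale, with a median of -0.05, against -0.07 for all genes. The member that fell was SETD7, a methyltransferase of lysine 4 of histone H3 and of many other proteins in mammals. It had 30.7, 23.2 and 24.6 TPM in the 1D libraries, 26, 26 and 35.5 in those of 14D, and 15.2, 13.1 and 15 in those of 28D, so that no 28D library reached the earlier ones, and its log2 change was -0.96 ± 0.17 (adjusted p = 0.028). The call was lost without 1D replicate 3, 14D replicate 3 or 28D replicate 1, 2 or 3 (adjusted p from 0.0506 to 0.0897), and was also lost after quantile normalization (adjusted p = 0.0513, range over all alternatives 0.0229 to 0.0897). The direction stayed the same under all of them. SETD9, a SET domain protein, had 27.5, 34.2 and 18.5 TPM at 14D and 40.4, 38.1 and 38.6 TPM at 28D and did not pass between these stages (adjusted p = 0.189).

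The comparison of 28D with 1D uses the same 1D libraries as that of 14D, so its calls are not a second test of them. It called 37 of 88 members lower and 11 higher, with 43.9% and 16.4% of all genes (60.3% in either direction), and 26 lower and 25 higher after median-ratio rescaling, with 29.6% and 28.5% of all genes. The largest falls were those of SETD6 (log2 change -2.61 ± 0.18) and PRDM11 (-2.22 ± 0.16), and those of SMYD2, KDM4C, SMARCAD1, SETD3 and KDM1A were also among the 8 largest. The largest rises were those of SIRT4 (1.59 ± 0.21), HDAC5 (1.31 ± 0.22), EZH1 (0.95 ± 0.16) and HDAC7 (0.86 ± 0.16). SETD9 was called higher (log2 change 0.63 ± 0.20, adjusted p = 0.0184), a call lost without 1D replicate 1 or 28D replicate 1 (adjusted p from 0.0511 to 0.0637), with a range of 0.000574 to 0.0637 over all alternatives. SETD7 was lower (adjusted p = 0.00213), but not after median-ratio rescaling or quantile normalization (adjusted p = 0.0733 and 0.104, range 0.00159 to 0.104).

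Over the 3 stages together the moderated F test called 48 of 88 members (54.5%), against 58.4% of all genes. Of the 48, 36 (75%) peaked on day 1, against 71.4% of all genes called. On day 14 peaked 6 (12.5%) and on day 28 also 6 (12.5%), against 9.08% and 19.5% of all genes called. Levels of the members ranged from 0.945 TPM to 83.4 TPM as means over the 9 libraries, with a median of 14.1 TPM, against 13.9 TPM for all genes tested. The summed level of the 88 genes was 1832 ± 89.7 TPM on day 1, 1467 ± 85.1 on day 14 and 1405 ± 15 on day 28 (mean ± SD, n = 3). The mRNA table as a whole fell as well, from a mean sum of 841238 TPM on day 1 to 756387 on day 14 and 778740 on day 28, while the lncRNA share rose from 15.3% to 23.7% and 21.5%. Of the mRNA total the 88 genes made up 0.218%, 0.194% and 0.180%.

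Other chromatin genes, from lists of complex subunits, acetyltransferases, further methyltransferases and histone chaperones that hold none of the 88 members, fell more often than they rose between 1D and 14D. Of 93 tested (119 listed), 55 were lower and 4 higher, beside the 39.2% and 13.6% of all genes, with 38 lower and 9 higher after median-ratio rescaling (25.9% and 24.5% of all genes). Their median log2 change was -0.56, against -0.31 for all genes. Histone chaperones and factors that restore chromatin after replication fell in 14 of 15, with a median of -1.06, and in 13 after median-ratio rescaling. UHRF1, which guides DNMT1 to freshly copied DNA, fell by day 14 from 50.4 ± 9.84 to 4.45 ± 1.24 TPM (log2 change -3.25 ± 0.20, adjusted p = 2.92e-06), against -0.63 for DNMT1, and HELLS, a remodeller needed for DNA methylation, from 67.5 ± 2.35 to 12.5 ± 3.82 TPM (adjusted p = 1.19e-05). The replication and mitosis genes given above moved with them, and their part in these falls was not tested.

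Other Polycomb subunits fell in 15 of 23 (65.2%) and rose in 2, against 39.2% lower and 13.6% higher among all genes, and after median-ratio rescaling 10 were lower and 2 higher (25.9% and 24.5% of all genes). RBBP7, a histone-binding subunit, fell from 36 ± 1.7 to 8.42 ± 2.65 TPM, while PHF19, which helps load the EZH complex onto DNA, fell from 12.3 ± 0.725 to 2.91 ± 0.416 TPM (adjusted p = 5.37e-05 and 2.06e-05). PCGF5 rose from 2.45 ± 0.521 to 8.67 ± 0.388 TPM (adjusted p = 0.000491), and CBX7, a reader of methylated lysine 27, from 1.01 ± 0.0947 to 3 ± 1.82 TPM (adjusted p = 0.0221). The CBX7 call was lost without 1D replicate 1, 2 or 3 or 14D replicate 1 (adjusted p from 0.0515 to 0.0644), with a range of 0.00278 to 0.0644 over all alternatives. PCGF5 and CBX7 are subunits of Polycomb complexes of the kind that ubiquitinates histone H2A, not necessarily of the same one.

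Among 15 histone acetyltransferase genes, 4 fell (26.7%) and 1 rose (6.67%), against 39.2% lower and 13.6% higher among all genes, and after median-ratio rescaling 4 were lower and 4 higher (25.9% and 24.5% of all genes). The riser was KAT2B (PCAF), an acetyltransferase that acts with MYOD1 in mammals, at 12.5 ± 2.03 TPM and then 26.4 ± 3.55 TPM (adjusted p = 0.0174). Its call was lost without 1D replicate 3 or 14D replicate 2 (adjusted p from 0.0519 to 0.0635), with a range of 0.000891 to 0.0635 over all alternatives. HAT1, which acetylates new histones, fell from 53.7 ± 2.69 to 22.2 ± 3.53 TPM and KAT6B from 16.9 ± 2.2 to 8.99 ± 0.556 TPM (adjusted p = 9.47e-05 and 0.00283). NuRD and corepressor subunits fell in 9 of 13 (69.2%, and 4 after median-ratio rescaling, by which 25.9% of all genes were lower), led by SAP30 (27.8 ± 2.07 to 5.65 ± 0.0122 TPM) and MBD3 (49.4 ± 4.65 to 18.3 ± 1.94 TPM). Further SWI/SNF subunits fell in 6 of 14 (42.9%, near the 39.2% of all genes, and 3 after median-ratio rescaling), led by ACTL6A (49.3 ± 2.23 to 22.1 ± 3.19 TPM) and SS18 (48.5 ± 3.36 to 23.4 ± 1.8 TPM). Of 13 further methyltransferase genes 7 fell (53.8%, and 4 after median-ratio rescaling), led by the arginine methyltransferase PRMT3 (51.6 ± 5.35 to 13.1 ± 1.62 TPM) and NSD2 (30.5 ± 4.85 to 12.7 ± 2.18 TPM). RBBP5, a subunit of the H3K4 methyltransferase complexes, rose from 6.37 ± 1.08 to 9.01 ± 1.05 TPM (adjusted p = 0.0373). That call was lost without 1D replicate 2 or 3, 14D replicate 1, 2 or 3 or 28D replicate 1 (adjusted p from 0.0503 to 0.12), with a range of 0.00106 to 0.12 over all alternatives.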

How the data were processed

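RNA from breast muscle of White-King pigeons was sequenced, and the authors deposited TPM tables of mRNAs and of lncRNAs. STAR 2.6.0c and Cufflinks 2.1.1 are named in the submitters' processing notes; the roles of these tools, the genome build and the read counts are not given in the sources used here. Each table has 12 value columns, of which 9 match a library by name. The other 3 match no label and were not used, so the planned comparisons with 2Y were not run. Symbols came from a RefSeq gene table of the pigeon by gene ID, which matched 12256 of 12918 mRNA entries. The planned sequence descriptions were not run.

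The TPM values as deposited were tested as log2(TPM + 1) with limma 3.58.1 in R 4.3.3 (linear fit to stage over 9 libraries, empirical Bayes moderation with a trend, two-sided), over the 11951 genes that reached 1 TPM in 3 or more libraries. Benjamini-Hochberg adjusted p below 0.05 over all these genes was the call. A log2 change on this scale understates the change of low genes. In simulated data of 11951 genes for 14D against 1D, 75 of 100 genes changed by log2 1 and 99 of 100 changed by log2 2 were recovered, with 14 false calls among 188. Changes were planted only in genes above a minimum level. Far fewer genes changed than in the measured data, where 52.8% were called, so these rates do not carry over to it. The precision of each value is limited by 3 libraries per stage, and TPM keep no depth.

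Named with full values were, per comparison, up to 8 called members with the largest rise and up to 8 with the largest fall, a fixed panel, and up to 2 called genes each way per list of other chromatin genes; other members are named within their role. A member that the rule names is not reported here by name or shown in the plot of levels, and stays in all counts. The members, panel, gene lists and marker lists were chosen with earlier results of these data known. Alternatives were 2 rescalings (median ratio, quantile), pseudocounts of 0.1 and 0.5, no filter, a mean of at least 5 TPM, moderation without a trend, the replicate number as a block, and leaving out each library. Python 3.11.15 was used for counts and figures.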

Additional observations from a re-analysis of the deposited data

How the results depend on the processing

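Scaling moved the split of the calls most. Between 14D and 1D, 22 members were higher and 22 lower after median-ratio rescaling, and 22 higher and 21 lower after quantile normalization, in place of 9 and 36. Of all genes 24.5% were higher and 25.9% lower after median-ratio rescaling, in place of 13.6% and 39.2%. Between 28D and 1D, 25 members were higher after median-ratio rescaling and 27 after quantile normalization, in place of 11. Of all genes 28.5% were higher after median-ratio rescaling in that comparison, in place of 16.4%. Shares of all genes under the other alternatives, here and below, are not given. Nothing particular to the members is therefore read from these counts. Of the members called between 14D and 1D, 27 of 45 kept their call under all of the 17 alternatives in which they were tested and 30 under both rescalings, and between 28D and 1D 33 of 48 and 37 did. For the 88 members and 16 of the other chromatin genes together, 5259 values under the alternatives were compared with those reported. Values called on either side turned direction in 2 genes, and 229 of the 5259 values, called on neither side, did too. SETD2, lower at 28D than at 1D as deposited, had a log2 change of 0.056 after median-ratio rescaling and 0.095 after quantile normalization. SETDB1, not called as deposited, had 0.34 and 0.36 and was called higher. The cause was not tested.

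Leaving out each library gave 39 to 48 members called by the F test, 6 to 10 rises and 25 to 38 falls from day 1 to day 14, 0 rises and 0 to 1 falls from day 14 to day 28, and 8 to 11 rises and 32 to 39 falls from day 1 to day 28. The lower call at 28D against 14D, SETD7, was also absent after quantile normalization, with 0 lower. The replicate numbers do not pair the libraries: same-numbered libraries had residual correlations of -0.072 to 0.047 in 9 pairs, and 1 of 9 libraries correlated best with its own number. With the replicate number as a block, 42 members were called by the F test, with 7 rises and 34 falls from day 1 to day 14, 0 of either from day 14 to day 28, and 9 rises and 37 falls from day 1 to day 28. The pseudocount, filter and trend settings gave counts within 1.5 times of those reported. The depth of the libraries is unknown, so counting error in low genes such as PRDM16 could not be given.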

Other observations

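DNMT3B and PRDM6, which carry matching names but lay under the minimum level, were present mainly on day 1. DNMT3B, a methyltransferase that sets DNA methylation anew and is typical of early cells, had 1.26, 1.09 and 1.19 TPM in the 1D libraries, 0.0444, 0 and 0.350 TPM at 14D and 0.0890, 0.122 and 0.0422 TPM at 28D. PRDM6, known from smooth muscle, had 1.17, 0.994 and 0.822 TPM at 1D, 0.0348, 0.170 and 0.355 TPM at 14D and 0, 0 and 0.0704 TPM at 28D. Only 1D libraries of these genes reached 0.5 TPM. Their presence in the deposited values may itself rest on day 1, so nothing is read from the difference.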
